A study of Mus musculus with 18 samples.

Results

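Lung RNA of C3H/HeJ mice that became moribund after thoracic irradiation was compared with lung RNA of untreated C3H/HeJ mice. The comparison takes the arrays titled as sick C3H, 3 in number, and the arrays titled as C3H controls, also 3, so 6 of the 18 arrays of the study. A single thoracic exposure of 18 Gy was given by a caesium irradiator when the treated mice were 8 weeks old, behind a lead shield that let 3% of the beam reach the rest of the body. They were killed at 20 to 22 weeks of age, which is 12 to 14 weeks after exposure, when they had lost over 20% of their weight and breathed fast with a hunched posture. The untreated C3H/HeJ mice were 15 to 26 weeks old. The other arrays come from A/J and C57BL/6J mice (C57BL6/J is the spelling of the labels), again with 3 irradiated and 3 untreated arrays each. Irradiated A/J mice were killed 22 to 24 weeks and irradiated C57BL/6J mice 20 to 22 weeks after exposure to 18 Gy at 8 weeks of age. They were then 30 to 32 and 28 to 30 weeks old, and the untreated mice of both strains were 15 to 26 weeks old. Every sample is total RNA of the right lung. The labels speak of 3 moribund mice per strain but only of 3 samples from control mice, so p-values measure the spread between these samples, which may be technical in part. Exposure, moribund state and weight loss go together in the irradiated group and cannot be told apart. In RNA of a whole lung, fewer cells of a type and less RNA per cell cannot be told apart either.

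Radiation injures the thin alveolar epithelium and the capillary endothelium of the lung, and in the following months a pneumonitis can develop in which leukocytes fill the air spaces, followed in some strains by fibrosis. C3H/HeJ is an inbred strain known mainly for the inflammatory form. It carries a missense mutation in Tlr4, the receptor for bacterial lipopolysaccharide, and responds poorly to that ligand.

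Levels are given as log2(signal + 7) after quantile normalization, called log2 levels here, and changes are differences of mean log2 levels, irradiated minus untreated, with their standard errors. A change was called when its Benjamini-Hochberg adjusted p in limma, over 12405 genes, was at most 0.05. The C3H/HeJ irradiated arrays were brighter than the untreated ones before normalization, with trimmed mean signals of 102.4, 75.38 and 133.9 against 46.32, 74.69 and 70.95, so the groups did not overlap by that measure. Median signals did overlap, at 27.4, 20.3 and 35.0 against 14.8, 22.6 and 20.8. Over all genes, the median log2 fold change came to 0.61 without scaling, 0.24 after median centring and 0.01 after quantile normalization, and changes below are relative to that shift. RNA integrity, read as 5' over 3' actin signal, was 0.7164 to 0.7643 in irradiated arrays and 0.6935 to 0.7663 in untreated arrays. Lung markers were strong in all 6 arrays. The deposited signal of the surfactant gene Sftpc was 6757 to 7958 in irradiated and 6504 to 7847 in untreated arrays, and that of the club cell gene Scgb1a1 8433 to 9456 and 7127 to 8640.

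Irradiated array 3 stood apart in strain identity. Markers were 48 probe sets that separate untreated C3H/HeJ from untreated A/J without overlap and by at least 2 on the log2 scale. Their irradiated and untreated A/J means also had to differ by less than 0.5. Each array was placed on a linear signal scale where 0 is the untreated C3H/HeJ mean and 1 the untreated A/J mean. The median position was 0.01 and 0.02 in irradiated arrays 1 and 2, 0.52 in irradiated array 3, between −0.01 and 0.01 in the untreated C3H/HeJ arrays and between 0.99 and 1.00 in the irradiated A/J arrays. The positions of untreated C3H/HeJ and irradiated A/J arrays follow from the scale and the marker choice, and are no test of the markers. Array 3 therefore lay near the middle between the strains, while the medians of the other 5 arrays lay at C3H/HeJ. The position of array 3 was 0.52 at the 23 markers higher in A/J and also 0.52 at the 25 markers higher in C3H/HeJ. The named markers lay on 14 chromosomes, and the median position of array 3 was between 0.28 and 0.73 on each of them. Arrays 1 and 2 lay off C3H/HeJ on some chromosomes with 1 to 3 markers, array 1 by up to 0.331 on chromosome 13 and array 2 by up to 0.456 on chromosome 19. At one probe set of H2-D1, a class I histocompatibility gene, the log2 levels of the irradiated arrays were 5.71, 5.47 and 10.57, against 5.20 in untreated C3H/HeJ lung on average and 11.50 in untreated A/J lung on average. The opposite held for Mndal, an interferon-inducible gene high in C3H/HeJ, with 8.31, 8.24 and 7.89 against untreated means of 8.15 in C3H/HeJ and 3.03 in A/J. Both genes are examples picked after their values were seen. On the log2 scale the median position of array 3 was 0.56. Where this array comes from was not tested, and counts that moved by over 1.5 times without it are given both ways.

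**Figure D1:**
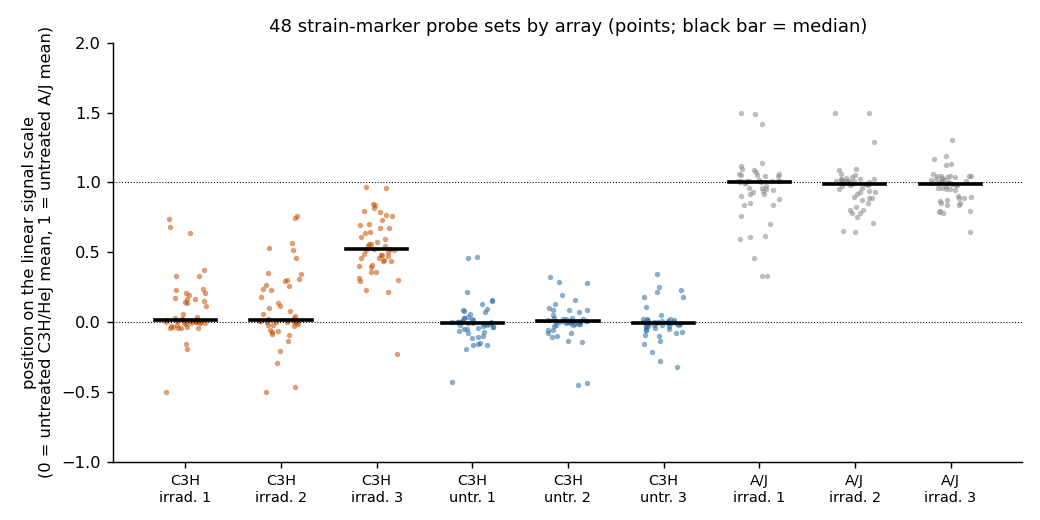
Position of each array (x axis) at 48 strain-marker probe sets on the linear signal scale (y axis), where 0 is the mean of untreated C3H/HeJ and 1 the mean of untreated A/J arrays. Points are probe sets (values beyond −0.5 and 1.5 are drawn at those limits) and black bars are medians. Irradiated C3H/HeJ array 3 has its median at 0.52, the other C3H/HeJ arrays near 0. Positions of the untreated C3H/HeJ and irradiated A/J arrays follow from the scale and the marker choice.

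In irradiated C3H/HeJ lung 2916 of the 12405 genes tested were called (23.5%), 1597 of them higher (12.9%) and 1319 lower (10.6%). The 3 irradiated and 3 untreated arrays did not overlap at 5010 genes (40.4%). Without scaling the calls split into 3195 higher and 71 lower, and after median centring into 2960 higher and 467 lower, so the balance between increases and decreases depends on the scaling. Counts of list members given below under these settings carry the same shift of all genes. Without irradiated array 3, 2180 genes were called, 1194 higher and 986 lower, and 2066 of the 2916 calls were kept in the same direction (70.9%). Leaving out irradiated array 1 or 2 instead kept 72.8% and 71.8%. The 15 highest and the 15 lowest changes among called genes without overlap are shown by array. These 30 genes were called under each of the 14 alternatives run, and leaving out irradiated array 3 moved none of them by more than 0.31 on the log2 scale.

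**Figure D2:**
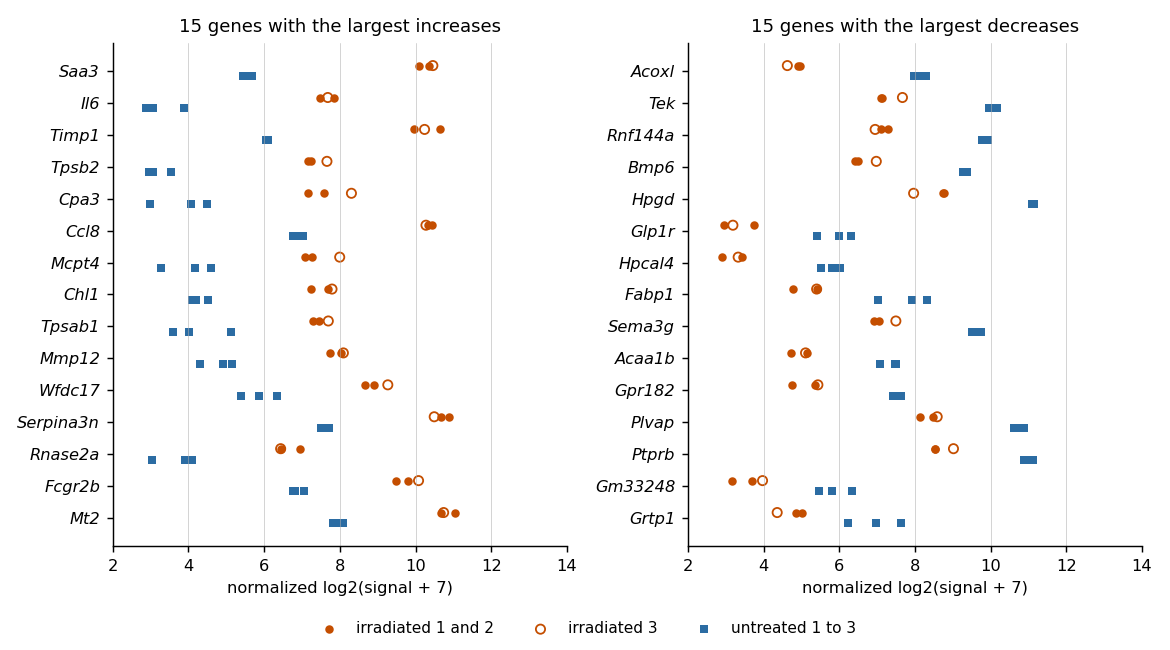
Normalized log2(signal + 7) (x axis) in each C3H/HeJ array for the 15 genes with the largest increases (left) and the 15 with the largest decreases (right) among called genes whose groups do not overlap. Orange circles are irradiated arrays, the open circle being array 3, and blue squares are untreated arrays. Saa3 lies at 10.10 to 10.46 in irradiated and 5.45 to 5.68 in untreated arrays.

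The largest increases among called genes without overlap were those of Saa3 and Il6. Saa3, a serum amyloid A made locally by macrophages and epithelium, had log2 levels of 10.10, 10.36 and 10.46 in irradiated lung, against 5.65, 5.68 and 5.45 in untreated lung. It rose by 4.71 ± 0.33 (26.1-fold, adjusted p = 5.37e-07), and the groups lay far apart. Il6, the cytokine that drives the acute-phase response, had 7.48, 7.84 and 7.68 against 2.88, 3.08 and 3.90, where the untreated values lie close to the lowest level the scale allows. It rose by 4.38 ± 0.41 (20.9-fold, adjusted p = 5.68e-06), a fold that the pseudocount makes smaller than the signal ratio. Of 24 measured acute-phase and complement genes 21 rose and none fell, with a median log2 fold change of 1.49 against 0.01 over all genes, and 20 of the 21 calls were kept without irradiated array 3. Among them were the protease inhibitor Serpina3n (10.67, 10.88 and 10.49 against 7.50, 7.71 and 7.60), the siderophore-binding Lcn2 (11.60, 11.80 and 11.53 against 8.58, 8.99 and 8.90) and the transport protein Orm1. The complement gene C1qc rose by 2.17 and the anaphylatoxin receptor C3ar1 by 2.46. C6, of the membrane attack complex, had a change of −0.17 ± 0.23 that was not called.

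Of 14 measured genes of the interleukin-6 family, Il6 among them, 6 rose and 2 fell (median 0.40), while 8 rose and none fell without scaling. The feedback inhibitor Socs3 had log2 levels of 9.45, 9.25 and 9.09 in irradiated lung, against 7.36, 7.44 and 7.39 in untreated lung, and rose by 1.87 ± 0.19 (adjusted p = 1.14e-05) on all 3 of its probe sets. The oncostatin M receptor Osmr rose by 1.00 ± 0.14 and the ligand Lif by 1.10 ± 0.29. The leukaemia inhibitory factor receptor Lifr fell by 1.20 ± 0.17, with 8.35, 8.26 and 8.71 against 9.61, 9.70 and 9.61, although not called without scaling. The rise of oncostatin M itself (Osm, 0.78 ± 0.26, adjusted p = 0.0374) was lost under several alternatives, among them a fit on the C3H/HeJ arrays alone. No Tnf result is given, because no probe set that names it alone was bright enough to be kept for testing.

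The promoters of Il6, Saa3 and Socs3 are shown because these genes carry the acute-phase result. Each runs from 250 bases before the RefSeq transcription start to 50 bases after it, 5' to 3' on the gene's strand, on build GRCm38.p6. Capitals mark matches on either strand to TGANTCA (AP-1), GGNNTTNCC (NF-kB) and TTNNGNAA (C/EBP) in Il6, to TTNNGNAA in Saa3, and to TTCNNNGAA (STAT) in Socs3, and no matches in capitals overlap. Over 27025 promoters of the table, 1 per gene, 7.93% held TGANTCA, 15.8% GGNNTTNCC, 40.7% TTNNGNAA and 8.47% TTCNNNGAA.
Il6, chr5:30012864-30013163, plus strand: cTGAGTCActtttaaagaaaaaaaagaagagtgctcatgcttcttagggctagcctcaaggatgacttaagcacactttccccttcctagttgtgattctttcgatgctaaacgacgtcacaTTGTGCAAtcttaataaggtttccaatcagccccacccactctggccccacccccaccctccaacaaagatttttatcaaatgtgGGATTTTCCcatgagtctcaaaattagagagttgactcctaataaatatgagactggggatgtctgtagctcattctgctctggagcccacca
Saa3, chr7:46715627-46715926, minus strand: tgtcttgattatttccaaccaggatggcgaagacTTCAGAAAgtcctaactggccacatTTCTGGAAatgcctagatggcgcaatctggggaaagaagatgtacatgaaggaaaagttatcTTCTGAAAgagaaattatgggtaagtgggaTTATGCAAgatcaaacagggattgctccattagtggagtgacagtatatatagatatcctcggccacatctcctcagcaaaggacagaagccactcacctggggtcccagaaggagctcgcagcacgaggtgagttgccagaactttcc
Socs3, chr11:117969317-117969616, minus strand: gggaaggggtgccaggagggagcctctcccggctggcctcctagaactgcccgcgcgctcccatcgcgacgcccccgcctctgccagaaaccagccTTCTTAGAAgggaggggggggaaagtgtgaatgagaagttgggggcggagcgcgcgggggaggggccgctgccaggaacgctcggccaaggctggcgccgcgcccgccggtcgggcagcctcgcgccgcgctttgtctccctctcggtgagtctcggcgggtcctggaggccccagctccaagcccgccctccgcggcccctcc
In Il6 the matches began at −249 (TGAGTCA), −128 (TTGTGCAA) and −43 (GGATTTTCC) relative to the start. Saa3 held 4 C/EBP matches, the nearest to the start at −99, and Socs3 1 STAT match at −154 (TTCTTAGAA). Saa3 also held an NF-kB match at −187 (GGAAATGCC), which overlaps the C/EBP match at −191 and is not in capitals. A match is a run of letters and not evidence of binding.

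**Figure D3:**
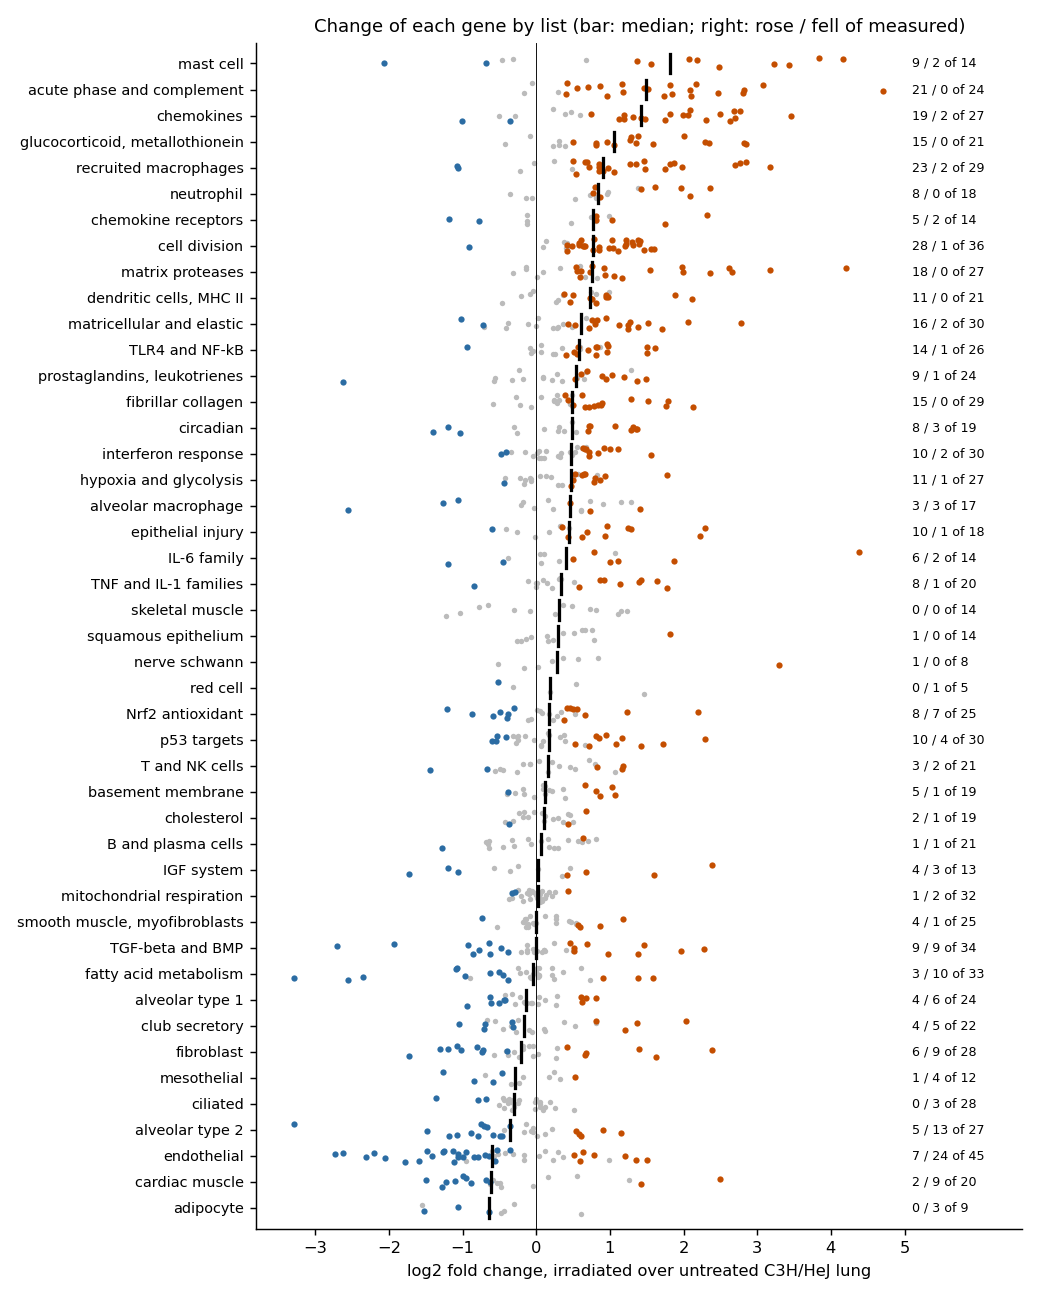
Log2 fold change (x axis), irradiated over untreated C3H/HeJ lung, of every measured member of 45 gene lists (rows, ordered by median). Orange points are genes called higher, blue points called lower and grey points not called, black bars are medians, and the numbers at the right give members that rose, members that fell and members measured. Mast cell, acute-phase and chemokine lists lie at the top, endothelial, cardiac muscle and adipocyte lists at the bottom.

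Chemokines that recruit monocytes and eosinophils rose. Of 27 measured chemokines 19 rose and 2 fell (median 1.43), and 20 of these 21 calls were kept without irradiated array 3. Ccl8 had log2 levels of 10.32, 10.45 and 10.28 in irradiated lung, against 7.03, 6.77 and 6.87 in untreated lung, and rose by 3.46 ± 0.42. The monocyte attractant Ccl2 had 6.95, 7.53 and 7.21 against 4.68, 4.48 and 4.24. The eosinophil attractant Ccl24 had 5.45, 6.33 and 6.45 against 3.27, 3.69 and 3.16. In each of them the lowest irradiated array lay above the highest untreated one. Ccl17, which attracts T helper cells, rose by 2.69 ± 0.39. Ccl2, Ccl7, Ccl11, Ccl12 and Ccl8 are neighbours on chromosome 11 in the RefSeq order, and all 5 rose, by 2.76, 2.50, 1.48, 2.64 and 3.46. In a second run of neighbours on the same chromosome Ccl9, Ccl6 and Ccl3 rose by 2.31, 1.19 and 1.43, while Ccl5 (−0.29) and Ccl4 (0.47) were not called. These neighbours were picked after their values were known.

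Some receptors for these ligands rose as well. Ccr2, the receptor for Ccl2 on inflammatory monocytes, had log2 levels of 8.57, 9.52 and 9.40 in irradiated lung, against 7.06, 7.96 and 7.25 in untreated lung, and rose by 1.74 ± 0.27. Ccr1 rose by 2.32 ± 0.24 and the fractalkine receptor Cx3cr1 by 1.03 ± 0.28. In all, 5 of 14 chemokine receptors rose (35.7%, against 12.9% of all genes) and 2 fell (14.3%, against 10.6%). The chemerin-binding receptor Ccrl2 fell by 1.18 ± 0.13, a call that was lost without scaling.

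Of 26 measured genes of Toll-like receptor signalling 14 rose and 1 fell in this Tlr4-mutant strain (median 0.58), and 10 calls were kept without irradiated array 3, all of them rises. Whether array 3, near the middle between C3H/HeJ and A/J at the strain markers, carries the Tlr4 mutation was not tested. Cd14, the co-receptor that hands lipopolysaccharide to the Tlr4 complex, had log2 levels of 9.38, 9.26 and 9.45 in irradiated lung, against 7.66, 7.79 and 7.82 in untreated lung, and rose by 1.61 ± 0.15 (adjusted p = 4.2e-06). Tlr4 itself had 6.65, 6.34 and 6.98 against 5.77, 6.10 and 5.99. Its change of 0.70 ± 0.21 was called (adjusted p = 0.0252), but not without irradiated array 3 (0.54, adjusted p = 0.114), and only 1 of its 3 probe sets was called. Ly96, the partner of Tlr4, rose by 0.56 ± 0.19 (adjusted p = 0.0419), again not without array 3 (adjusted p = 0.0813). Other receptors rose by more, with Tlr13, a sensor of bacterial RNA, at 1.50 ± 0.26 and Tlr2, a sensor of lipoproteins, at 0.97 ± 0.16. Of 20 genes of the tumour necrosis factor and interleukin-1 families and related cytokines 8 rose and 1 fell, and 11 did not pass the test. Il1b had 7.33, 8.21 and 8.12 against 6.17, 6.14 and 6.02, a rise of 1.77 ± 0.32, its antagonist Il1rn rose by 1.64 ± 0.25 and the decoy receptor Il1r2 by 1.42 ± 0.28.

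Markers of recruited macrophages rose in 23 of 29 cases and fell in 2 (median 0.91), or 19 and 1 without irradiated array 3. Retnla, a product of alternatively activated macrophages, had log2 levels of 11.26, 11.51 and 11.58 in irradiated lung, against 8.25, 8.44 and 9.11 in untreated lung, and rose by 2.85 ± 0.23. Mmp12, the macrophage elastase, had 8.04, 7.73 and 8.09 against 4.30, 5.15 and 4.92, and Trem2, a lipid-sensing receptor, 7.23, 6.95 and 7.44 against 4.01, 4.42 and 5.08. The inhibitory Fc receptor Fcgr2b rose by 2.91 ± 0.29 on all 4 of its probe sets and Ms4a7 by 1.86 ± 0.28. Arg1, the arginase of alternatively activated macrophages, spread widely over the irradiated arrays, with 5.00, 6.46 and 7.74 against 3.56, 3.69 and 3.63. Its change of 2.77 ± 0.85 (adjusted p = 0.0276) was not called without array 3 (adjusted p = 0.126), where it was highest. Markers of resident alveolar macrophages moved in both directions, 3 up and 3 down of 17 (17.6% each, against 12.9% and 10.6% of all genes). The counts were 1 up and 3 down without array 3 and 11 up and 1 down without scaling. Siglecf, their sialic acid receptor, fell by 1.27 ± 0.28 and Fabp1 by 2.55 ± 0.47, while Csf2rb, the shared receptor chain for the growth factor GM-CSF, rose by 1.41 ± 0.22. Wfdc17, an inhibitor made by activated macrophages, rose by 3.09 ± 0.40, and Rnase2a, of the family of eosinophil-associated ribonucleases whose members are alike in sequence, by 2.92 ± 0.51.

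Neutrophil and dendritic cell genes rose in part, and lymphocyte genes mostly did not pass the test. Of 18 neutrophil genes 8 rose and none fell, and 5 of these calls were kept without irradiated array 3. The collagenase Mmp8 had log2 levels of 7.09, 6.95 and 7.05 in irradiated lung, against 5.19, 4.72 and 4.08 in untreated lung, and the surface protein Cd177 had 6.93, 7.31 and 7.47 against 5.26, 4.96 and 5.23. S100a8, a calcium-binding protein abundant in neutrophils, rose by 0.79 ± 0.27 (adjusted p = 0.0436) but was not called without irradiated array 3 (adjusted p = 0.12). Of 21 genes of dendritic cells and MHC class II presentation 11 rose and none fell. Fscn1, the actin bundler of mature dendritic cells, rose by 2.12 ± 0.21 on 1 of its 2 probe sets, Itgae, the integrin of CD103+ dendritic cells and of epithelial T cells, by 1.88 ± 0.23, and H2-Eb1, an MHC class II chain, by 0.97 ± 0.11. Of 21 T and NK cell genes 3 rose and 2 fell, counts that lie near the share over all genes of 12.9% and 10.6%, and 2 rose and none fell without irradiated array 3. Gzma, a granzyme of cytotoxic cells, had 7.09, 7.06 and 5.75 against 7.61, 8.45 and 8.15, and its fall of 1.44 ± 0.41 was not called without array 3 (adjusted p = 0.0943). Of 21 B and plasma cell genes 1 rose, Sdc1, and 1 fell, Ighm (4.76% each, against 12.9% and 10.6% of all genes). The immunoglobulin mu gene Ighm changed by −1.28 ± 0.36 on 1 of its 8 probe sets, and its median over probe sets pointed the other way (1.18, adjusted p = 0.371). Of 30 interferon-response genes 10 rose and 2 fell (9 and none without array 3, and 18 and none without scaling), with the antiviral Mx1 at 1.55 ± 0.22 and Ifit1 at 1.11 ± 0.20.

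Mast cell granule genes rose while the receptor Kit fell. Tpsb2, a tryptase, had log2 levels of 7.15, 7.24 and 7.66 in irradiated lung, against 2.96, 3.06 and 3.55 in untreated lung, and rose by 4.16 ± 0.34 (adjusted p = 1.72e-06). Cpa3, the mast cell carboxypeptidase, had 7.16, 7.59 and 8.31 against 4.50, 4.06 and 2.98. Tpsab1, Mcpt4, Cma1 and Mcpt2, a further tryptase and chymases, rose by 3.23, 3.43, 2.48 and 2.19. Irradiated array 3 was the highest of the irradiated arrays for all 6 of these genes, and the untreated levels lay near the bottom of the scale, where folds are understated. Without array 3 the changes were 4.01 for Tpsb2, 3.53 for Cpa3, 3.12 for Tpsab1, 3.16 for Mcpt4, 2.20 for Cma1 and 2.04 for Mcpt2, all still called. Tpsab1 and Tpsb2 are neighbouring, closely related genes whose probe sets may read both. Kit, the stem cell factor receptor, which mast cells carry but other lung cells also express, had 6.49, 6.43 and 7.21 against 8.69, 8.78 and 8.85 and fell by 2.06 ± 0.25 on both of its probe sets. Of 14 measured mast cell genes 9 rose and 2 fell (median 1.82).

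Genes of cell division rose together by moderate amounts. Of 36 measured 28 rose and 1 fell (median 0.77), and the groups did not overlap at 32 of them, against 40.4% of all genes. The mean log2 level of the list was 6.69 to 6.76 in irradiated arrays and 5.81 to 6.03 in untreated arrays. Mki67, a marker of cycling cells, had 7.38, 7.63 and 7.58 against 5.81, 6.49 and 5.90. Cyclin D1 (Ccnd1) had 10.84, 10.80 and 10.69 against 9.26, 9.47 and 8.91, and rose by 1.56 ± 0.15. The mitotic cyclin Ccnb2 rose by 1.38 ± 0.20, the replication licensing factor Cdc6 by 1.40 ± 0.24 and thymidine kinase Tk1 by 1.40 ± 0.31. The 3 irradiated arrays were close to each other here. Without array 3, 23 of the 29 calls were kept. Foxm1, a transcription factor of mitotic genes, rose by 1.60 ± 0.43 but was not called without that array (adjusted p = 0.0513).

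The promoters of Ccnb2 and of the mitotic kinase Cdk1, a listed gene picked for its promoter with its rise of 0.99 ± 0.19 known, are shown because many promoters of this group hold the same short motifs. Windows, build and strand are as above, and capitals mark CCAAT, bound by NF-Y, and TTTGAA, a form of the cell cycle homology region, on either strand.
Ccnb2, chr9:70421505-70421804, minus strand: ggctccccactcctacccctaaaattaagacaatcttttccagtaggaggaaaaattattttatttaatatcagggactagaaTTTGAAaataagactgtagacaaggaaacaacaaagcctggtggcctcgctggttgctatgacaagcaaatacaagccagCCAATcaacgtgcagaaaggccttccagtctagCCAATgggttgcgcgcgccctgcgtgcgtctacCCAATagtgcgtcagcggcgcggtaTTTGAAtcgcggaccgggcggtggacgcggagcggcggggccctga
Cdk1, chr10:69352863-69353162, minus strand: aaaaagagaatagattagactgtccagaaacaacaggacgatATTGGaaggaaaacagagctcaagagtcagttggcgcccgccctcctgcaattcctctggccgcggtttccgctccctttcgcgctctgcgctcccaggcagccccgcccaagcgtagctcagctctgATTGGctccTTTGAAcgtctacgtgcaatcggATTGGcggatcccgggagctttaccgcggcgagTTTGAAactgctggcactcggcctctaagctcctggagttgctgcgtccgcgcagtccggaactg
Ccnb2 held CCAAT at −87, −54 and −21, and Cdk1 held it at −208, −80 and −48, read as ATTGG on the printed strand. Of the 28 cell division genes that rose, 22 had a promoter in the RefSeq table. CCAAT was in 15 of these (68.2%) and TTTGAA in 9 (40.9%), against 37.9% and 18.1% of all 27025 promoters. Of the 36 list members with a promoter, risen or not, CCAAT was in 26 (72.2%) and TTTGAA in 17 (47.2%). The shares were thus no higher among the members that rose. Over all called genes that rose they were 36.4% and 12.4%.

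Several targets of p53, the DNA damage response factor, rose. Cdkn1a, the cell cycle inhibitor p21, had log2 levels of 9.86, 9.89 and 9.61 in irradiated lung, against 7.42, 7.36 and 7.70 in untreated lung, and rose by 2.29 ± 0.28 (adjusted p = 4.27e-05). Zmat3 had 8.23, 8.16 and 8.09 against 6.85, 6.86 and 6.48, the death receptor Eda2r rose by 1.72 ± 0.21, Phlda3 by 1.16 ± 0.16 and Ccng1 by 1.08 ± 0.11. Mdm2, the ubiquitin ligase that degrades p53, had a change of 0.38 ± 0.14 that was not called (adjusted p = 0.0644). Over the list of 30 genes, 10 rose and 4 fell (median 0.17), while 10 rose and 2 fell without irradiated array 3, and 15 rose and none fell without scaling.

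Matrix genes and the enzymes that cut matrix rose. Timp1, the tissue inhibitor of metalloproteinases, had log2 levels of 9.95, 10.66 and 10.24 in irradiated lung, against 6.10, 6.05 and 6.09 in untreated lung, and rose by 4.20 ± 0.35 (18.4-fold, adjusted p = 1.78e-06). Among 27 matrix proteases and inhibitors 18 rose and none fell (17 and 1 without irradiated array 3), including stromelysin Mmp3 (8.92, 9.22 and 8.79 against 6.39, 6.34 and 6.36), the aggrecanase Adamts4 (2.66 ± 0.33) and Mmp19 (1.99 ± 0.32). Of 29 genes of fibrillar collagens and their processing 15 rose and none fell (median 0.49). Col1a1 had 9.31, 9.52 and 9.21 against 7.57, 7.75 and 7.43 and rose by 1.76 ± 0.23. Col3a1 rose by 1.29 ± 0.18, Col5a2 by 2.13 ± 0.25 and the cross-linking enzyme Lox by 1.51 ± 0.29. In the basement membrane list 5 of 19 rose and 1 fell (none fell without array 3), with the vascular collagens Col4a1 and Col4a2 at 1.02 and 1.06.

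Of 30 matricellular and elastic fibre genes 16 rose and 2 fell, or 1 without irradiated array 3. Tenascin C (Tnc) had log2 levels of 8.31, 9.01 and 8.68 in irradiated lung, against 6.01, 5.93 and 5.71 in untreated lung, and fibronectin (Fn1) had 11.50, 11.51 and 11.50 against 10.23, 10.18 and 9.97. Elastin (Eln) varied more, with 9.07, 10.08 and 9.55 against 8.10, 7.93 and 8.11, and its change of 1.52 ± 0.52 (adjusted p = 0.0432) was lost without array 3 (adjusted p = 0.0924). Tgfb1, the profibrotic cytokine, had 7.91, 8.27 and 7.88 against 7.76, 7.60 and 7.18, and its change of 0.50 ± 0.26 was not called (adjusted p = 0.179). Over the list of that superfamily, Tgfb1 included, 9 rose and 9 fell of 34, but 12 up and 2 down without scaling. Tgfbi, a matrix protein induced by TGF-beta, rose by 1.96 ± 0.16 on all 4 of its probe sets, the activin chain Inhba by 2.28 ± 0.41 and the activin antagonist Fst by 1.46 ± 0.26. Igf1, a growth factor made by fibroblasts and macrophages, had 9.24, 9.12 and 8.80 against 6.35, 6.83 and 6.83, while the binding protein Igfbp6 fell by 1.73 ± 0.22. Smooth muscle and myofibroblast genes mostly did not pass the test, with 4 up and 1 down of 25 (16.0% and 4.0%, against 12.9% and 10.6% of all genes).

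Endothelial genes held the most decreases of the 45 lists. Of 45 measured 24 fell and 7 rose, with a median log2 fold change of −0.60 against 0.01 over all genes, and 19 fell and 4 rose without irradiated array 3. Without scaling 7 fell and 11 rose, and after median centring 15 fell and 10 rose, while the list median stayed 0.51 below that of all genes in both. Tek, the angiopoietin receptor Tie2, had log2 levels of 7.14, 7.11 and 7.67 in irradiated lung, against 10.17, 9.96 and 9.99 in untreated lung, and fell by 2.73 ± 0.18 (adjusted p = 5.37e-07). Ptprb, the phosphatase that acts on Tek, had 8.54, 8.54 and 9.02 against 11.13, 11.00 and 10.88. Plvap, the diaphragm protein of capillary fenestrae, had 8.14, 8.49 and 8.59 against 10.87, 10.67 and 10.61, and Aplnr, the apelin receptor of capillaries, 8.68, 9.06 and 9.63 against 11.22, 11.19 and 11.13. Array 3 was the highest irradiated array in all 4 of these, and without it the falls were larger, at −2.92, −2.46, −2.40 and −2.31. Gpihbp1, which anchors lipoprotein lipase on capillaries, fell by 1.79 ± 0.19, Tmem100 by 2.20 ± 0.29 and Sema3g, a semaphorin of arterial endothelium, by 2.50 ± 0.19. The pan-endothelial adhesion molecule Pecam1 fell only by 0.56 ± 0.15 (adjusted p = 0.014), with 9.79, 9.76 and 9.70 against 10.49, 10.25 and 10.17, and pointed upward without scaling (0.19).

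Among bone morphogenetic proteins and their receptors, which act in keeping lung vessels quiescent, Bmp6 and Acvrl1 fell. Both come from the superfamily list above, in which 9 of 34 genes rose and 9 fell, but 12 rose and 2 fell without scaling. Bmp6 had log2 levels of 6.42, 6.50 and 6.98 in irradiated lung, against 9.36, 9.38 and 9.27 in untreated lung, and fell by 2.71 ± 0.19 (adjusted p = 5.37e-07). The endothelial receptor Acvrl1 had 8.02, 8.11 and 7.12 against 9.81, 9.54 and 9.68 and fell by 1.93 ± 0.27. Further large decreases were in Gpr182, a scavenger receptor of endothelium (−2.33 ± 0.25), in the glucagon-like peptide receptor Glp1r (3.75, 2.96 and 3.19 against 5.99, 5.40 and 6.31) and in the ubiquitin ligase gene Rnf144a (7.11, 7.29 and 6.95 against 9.92, 9.78 and 9.77). Glp1r lay near the floor of the scale in irradiated lung, so its fold is understated. Hpcal4 (−2.55), Gm33248 (−2.26) and Grtp1 (−2.20) were also among the 15 largest decreases.

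Alveolar type 2 cell genes fell more often than they rose, and the keratins Krt8 and Krt18 rose. Of 27 type 2 cell genes 13 fell and 5 rose (median −0.35), or 13 and 3 without irradiated array 3, but without scaling 1 fell and 5 rose, and after median centring 8 fell and 4 rose. Relative to all genes the list median was −0.38 in both of these scalings. Acoxl, an acyl-coenzyme A oxidase-like gene, had log2 levels of 4.91, 4.98 and 4.63 in irradiated lung, against 7.96, 8.13 and 8.28 in untreated lung, and fell by 3.29 ± 0.45, the largest decrease among the called genes without overlap. The complement gene Hc, which type 2 cells also express, fell by 1.48 ± 0.29 and the phosphatase inhibitor Ppp1r14c by 1.18 ± 0.18, both lost without scaling. Ctsh, a protease that processes surfactant proteins, rose by 1.15 ± 0.19. Sftpc and Scgb1a1 sit at the top of the signal range, where quantile normalization leaves little room, and their changes of −0.13 ± 0.08 and 0.10 ± 0.08 were not called and changed sign under other scalings. Of 24 type 1 cell genes 6 fell and 4 rose (none fell and 6 rose without scaling), with the caveolae gene Cav2 at −0.94 ± 0.11 and the receptor Ager, also near the top of the range, at −0.06 ± 0.09, not called.

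Of 18 genes listed for epithelial injury and repair 10 rose and 1 fell. Krt8 had log2 levels of 11.17, 11.44 and 11.01 in irradiated lung, against 10.35, 10.28 and 10.19 in untreated lung, and Krt18, its partner in intermediate filaments, 10.22, 10.40 and 10.28 against 9.20, 9.34 and 9.47. The growth factor Ereg, which signals through the epidermal growth factor receptor, rose by 2.22 ± 0.28. Of 22 club and secretory cell genes 4 rose (18.2%, against 12.9% of all genes) and 5 fell (22.7%, against 10.6%). Without array 3, 2 rose and 7 fell, and without scaling 7 rose and none fell. The antimicrobial lectin Reg3g rose by 2.03 ± 0.44 and was highest in array 3 (8.57, 8.19 and 9.54 against 6.07, 6.64 and 7.49). The club cell enzyme Cyp2f2 changed by −0.71 ± 0.14. Of 28 ciliated cell genes 3 fell (10.7%, against 10.6% of all genes) and none rose (median −0.31, or 0.37 without scaling). Tppp3, a tubulin-associated protein, had the largest fall of the 3, at 1.36 ± 0.24.

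The main enzyme of prostaglandin breakdown fell, and genes of fatty acid use fell more often than they rose. Hpgd, the enzyme that inactivates prostaglandin E2, had log2 levels of 8.74, 8.77 and 7.96 in irradiated lung, against 11.12, 11.14 and 11.10 in untreated lung, and fell by 2.63 ± 0.40. Ptger4, a receptor for the same prostaglandin, had 8.37, 8.17 and 8.22 against 6.71, 6.75 and 6.81 and rose by 1.50 ± 0.18. Cyclooxygenase 2 (Ptgs2) rose by 1.37 ± 0.37 (adjusted p = 0.0135) but was not called without array 3 (adjusted p = 0.0517), and 1 of its 2 probe sets was called. On the leukotriene side Alox5ap rose by 1.02 ± 0.14 and Ltc4s by 1.19 ± 0.23. Of 33 fatty acid genes 10 fell and 3 rose (median −0.04), a balance that turned without scaling, where 3 fell and 8 rose, and after median centring, where 6 fell and 7 rose. The peroxisomal thiolase Acaa1b had 5.15, 4.72 and 5.11 against 7.48, 7.07 and 7.50, and the fatty acid transporter Cd36, shared by endothelium and macrophages, 10.88, 10.94 and 10.58 against 11.86, 11.91 and 11.86. Pdk4, which turns pyruvate away from oxidation in fasting, rose by 1.59 ± 0.27.

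Of 21 glucocorticoid-induced genes and metallothioneins 15 rose and none fell (median 1.06). Some of these, among them Lcn2 and Cdkn1a, are also counted in lists described above. The metal-binding Mt2 had log2 levels of 10.68, 11.05 and 10.74 in irradiated lung, against 7.83, 8.08 and 8.01 in untreated lung, and Mt1 rose by 2.34 ± 0.19. Fkbp5, a glucocorticoid receptor co-chaperone, had 7.98, 8.39 and 8.07 against 5.93, 6.21 and 6.29. Weight loss goes with irradiation in these mice, and its part in these levels was not tested. Genes of the antioxidant factor Nrf2 moved in both directions, 8 up and 7 down of 25, but 13 up and none down without scaling. The haem-degrading Hmox1 had 8.22, 8.29 and 8.62 against 6.16, 6.23 and 6.16 and rose by 2.19 ± 0.33. The glutathione transferase Gstm1 had 10.13, 9.83 and 9.85 against 11.20, 11.14 and 11.12 and fell by 1.22 ± 0.12, a call lost without scaling. Of 27 genes of hypoxia and glycolysis 11 rose and 1 fell, with Ankrd37 at 1.77 ± 0.28 and Hif1a at 0.87 ± 0.13.

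Clock genes changed on both limbs of the oscillator. Per2, a repressor of the clock, had log2 levels of 7.01, 6.92 and 7.02 in irradiated lung, against 5.62, 5.53 and 5.75 in untreated lung, and rose by 1.35 ± 0.12. Arntl, an activator, had 4.61, 4.80 and 5.14 against 6.50, 6.29 and 5.99 and fell by 1.41 ± 0.24 on 1 of its 2 probe sets. Of 19 clock genes 8 rose and 3 fell. The time of day at which mice were killed is not given in the sources used here, and its part was not tested. Respiratory chain genes mostly did not pass the test, with 1 up and 2 down of 32 (1 down without array 3) and a median of 0.02. These shares were 3.12% and 6.25%, against 12.9% and 10.6% of all genes.

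Markers of tissues next to the lung were read in the same arrays. Heart muscle extends along the pulmonary veins in mice. Of 20 cardiac muscle genes 9 fell and 2 rose (median −0.61), 5 fell without irradiated array 3, while without scaling 4 rose and none fell, and after median centring 3 fell and 3 rose. The cardiac list median was −0.58 relative to all genes in both of these scalings. The cardiac troponin Tnni3 had log2 levels of 7.30, 7.30 and 6.84 in irradiated lung, against 8.40, 8.52 and 9.01 in untreated lung. Nppb, a natriuretic peptide of strained heart muscle, rose by 2.50 ± 0.32, with 6.83, 6.59 and 6.30 against 4.59, 4.07 and 3.56. The mean level of the cardiac list was 7.20 to 7.38 in irradiated and 7.53 to 7.69 in untreated arrays. Skeletal muscle genes were not called in any of 14 cases, and their mean level was 5.13 to 6.24 in irradiated arrays, highest in array 1, and 5.26 to 5.52 in untreated arrays. Fat cell genes fell in 3 of 9 cases and mesothelial genes in 4 of 12, with 1 rise, while without scaling 2 fat cell genes and no mesothelial gene fell, and 2 mesothelial genes fell and none rose without irradiated array 3. Mean levels were 5.53 to 6.36 against 6.22 to 6.98 for fat, and 6.47 to 6.98 against 6.82 to 7.18 for mesothelium. Of squamous epithelium 1 gene of 14 rose (7.14%, against 12.9% of all genes), and of red cells 1 of 5 fell, against 10.6% of all genes. Neither of them was called without array 3. In the nerve list of 8 genes only the adhesion molecule Chl1 was called, with 7.23, 7.68 and 7.79 against 4.09, 4.53 and 4.21. No defining marker was at 0 in any array where a probe set named it alone, the lowest deposited signal being 0.9 for Cpa3 in untreated array 3. The part of these tissues in other results was not tested. The Y-linked gene Eif2s3y had log2 levels of 8.76, 9.03 and 8.75 in irradiated and 8.61, 8.85 and 8.65 in untreated arrays, and neither it, Kdm5d, Uty nor the X-inactivation transcript Xist was called.

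The response of C3H/HeJ was also set against those of A/J and C57BL/6J, with a test of each difference of effects. Irradiated C3H/HeJ mice were killed earlier after exposure, and at a younger age, than those of both other strains. In those strains the irradiated mice were older than the untreated ones, whereas in C3H/HeJ the age ranges overlapped. Strain, time after exposure and age therefore cannot be told apart. RNA integrity differed in irradiated A/J arrays, with 5' to 3' actin ratios of 0.413 to 0.5507, and its part in the comparison with A/J was not tested. The C3H/HeJ effect differed from the A/J effect at 131 genes (1.06%), being higher at 69 (0.556%) and lower at 62 (0.5%). It differed from the C57BL/6J effect at 200 genes (1.61%), being higher at 126 (1.02%) and lower at 74 (0.597%). Without irradiated array 3 of C3H/HeJ these counts were 198 and 139, of which 114 and 122 were among those above. The count against A/J was 33 without irradiated array 2, so it moves strongly with single arrays.

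Of the 15 genes with the largest increases in C3H/HeJ 7 differed in effect from C57BL/6J and 1 from A/J. All 15 were also called higher in A/J, where 15.1% of all genes were, and 6 of them in C57BL/6J, where 3.01% were. They were chosen for their C3H/HeJ change, so these counts are a description. Il6 rose by 4.38 in C3H/HeJ, against a change of 0.58 in C57BL/6J that was not called, a difference of 3.80 ± 0.58 (adjusted p = 0.00618). Timp1 changed by 4.20 against 0.98 (difference 3.23 ± 0.50), the chemokine Ccl24 by 2.70 against −0.22, Adamts4 by 2.66 against 0.07, Mmp3 by 2.61 against 0.45 and Socs3 by 1.87 against 0.36. Tpsb2 changed by 4.16 against 1.22, and Tpsab1 by 3.23 against 0.31. The RefSeq table of the C57BL/6J genome lists Tpsab1 as a transcribed pseudogene. These differences stayed called without irradiated array 3, while those of Il1b (2.22, adjusted p = 0.0526 without it), Cd14 (1.00, adjusted p = 0.0553) and Cma1 (1.81, adjusted p = 0.0887) did not. In the other direction Ptprb fell by 2.30 in C3H/HeJ and by 0.86 in C57BL/6J (difference −1.44 ± 0.21), and Acaa1b fell by 2.36 against a change of 0.13.

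A/J is also known for pneumonitis. Saa3 rose by 4.71 in C3H/HeJ and by 2.36 in A/J (difference 2.35 ± 0.47, adjusted p = 0.0292). Ccr2 changed by 1.74 against −0.44 (difference 2.19 ± 0.38), the inflammatory lectin Clec4e by 1.97 against −0.19, and the neutrophil attractant Cxcl5 by 1.75 against −1.95, a difference of 3.70 ± 0.35 (adjusted p = 0.000124). The endothelial glycoprotein Vwf fell by 1.25 in C3H/HeJ and rose by 0.61 in A/J. Of 19 clock genes 6 differed in effect from A/J and 6 from C57BL/6J, against 1.06% and 1.61% of all genes. Dbp, an output gene of the clock, changed by 0.54 in C3H/HeJ (not called), by 3.54 in A/J and by −1.16 in C57BL/6J, and Per2 by 1.35, 2.84 and −0.16. No mast cell gene of 14 differed from A/J, and 3 of 14 differed from C57BL/6J. Of cell division genes 1 of 36 differed from A/J and 3 of 36 from C57BL/6J, and 28 rose in C3H/HeJ, against 4 in A/J and 1 in C57BL/6J, which call 15.1% and 3.01% of all genes higher.

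**Figure D4:**
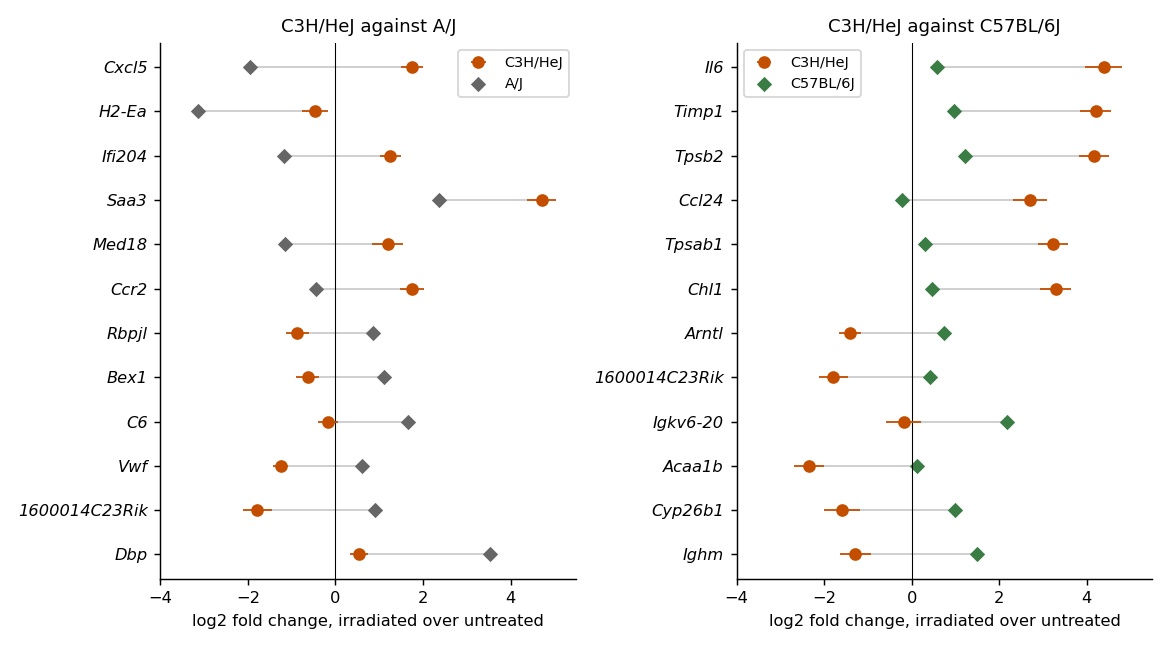
Log2 fold change, irradiated over untreated (x axis), of the 12 genes named for the C3H/HeJ difference from A/J (left) and the 12 named for the difference from C57BL/6J (right). Orange circles are C3H/HeJ with standard errors, grey diamonds A/J and green diamonds C57BL/6J, each from 3 irradiated and 3 untreated arrays. Il6 lies at 4.38 in C3H/HeJ and 0.58 in C57BL/6J, and Dbp at 0.54 in C3H/HeJ and 3.54 in A/J.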

How the data were processed

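The authors deposited linear signal intensity values of 45101 probe sets from 18 Affymetrix arrays of 1 colour, and the submitters' processing notes name MAS5 with no version. Scaling target, background steps and scan batches are not given in the sources used here, and the deposited intensity values differ in overall brightness between arrays. The number of arrays, 3 in each group, limits the precision.

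From these values, 64 control probe sets were left out, 7 (the 25th percentile of all values, 6.7, rounded) was added, and log2 values were quantile-normalized over all arrays. Probe sets above the median of all values in 3 or more arrays were kept (25726). Genes were named by the platform annotation, which can be old: 34958 probe sets named 1 gene, 932 several and 9211 had no entry. The kept probe set with the highest mean stood for a gene, giving 12405 genes, without Tnf and Gapdh, which no kept probe set names alone. limma 3.58.1 in R 4.3.3 fitted 6 group means on all arrays (12 residual degrees of freedom), with two-sided tests and Benjamini-Hochberg adjustment over all genes at 0.05. The fit was tested on simulated data. Tables and figures were made in Python 3.11.15 with pandas 2.3.3 and numpy 2.4.6.

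The members, the 45 gene lists and the tests were chosen with earlier results of these data known. Some genes are in several lists, so counts of different lists are not independent. Genes were named by a rule: the 15 highest and 15 lowest called changes without overlap, up to 6 called members of each list, the 6 highest and 6 lowest called differences of effects for each strain pair, and a short fixed list including Tlr4, Cdkn1a, Tgfb1, Pecam1 and sex-linked genes. Genes outside it are named as such. Alternatives were the scaling, the pseudocount (1 and 32), the filter, the summary over probe sets, the arrays fitted, a replicate block, each C3H/HeJ array left out and the choice of strain markers. The linear scale for strain markers was added after seeing the data. Promoter sequences, 250 bases before to 50 after the start, are from RefSeq, GRCm38.p6, with the first entry used for a gene, and 10007 of the 12405 genes had one.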

Additional observations from a re-analysis of the deposited data

Results flagged for a closer look

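The following differences of effects, C3H/HeJ minus the other strain on the log2 scale, passed the test and are the 6 highest and 6 lowest of each pair. Time after exposure and the age of the irradiated mice differ between the strains, and no cause was tested.

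Relative to A/J, the effect in C3H/HeJ was higher for Cxcl5 (3.70, with changes of 1.75 in C3H/HeJ and −1.95 in A/J), for the MHC class II gene H2-Ea (2.66, −0.47 and −3.13), for the interferon-inducible Ifi204 (2.42, 1.25 and −1.17), for the Mediator subunit gene Med18 (2.35, 1.20 and −1.16), for Saa3 (2.35) and for Ccr2 (2.19). Med18 was not called without irradiated array 3 (adjusted p = 0.0506), and its C3H/HeJ arrays overlap, with log2 levels of 6.76, 5.53 and 6.42 in irradiated and 4.65, 5.56 and 4.92 in untreated lung. H2-Ea lay lowest in irradiated array 3 (5.94, against 7.16 and 6.75 in the other irradiated arrays), and its difference was 3.00 without that array. The effect in C3H/HeJ was lower for Dbp (−2.99), for 1600014C23Rik (−2.70, −1.79 and 0.91), for Vwf (−1.86), for C6 (−1.83, −0.17 and 1.66), for Bex1 (−1.74, −0.64 and 1.10) and for the transcription factor gene Rbpjl (−1.72, −0.87 and 0.85).

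Relative to C57BL/6J, the effect in C3H/HeJ was higher for Il6 (3.80), Timp1 (3.23), Tpsb2 (2.95), Tpsab1 (2.92), Ccl24 (2.92) and Chl1 (2.83). It was lower for Ighm (−2.77, with changes of −1.28 in C3H/HeJ and 1.48 in C57BL/6J), for the retinoic acid hydroxylase Cyp26b1 (−2.58, −1.59 and 0.98), for Acaa1b (−2.49), for the immunoglobulin light chain segment Igkv6-20 (−2.35, −0.18 and 2.17), for 1600014C23Rik (−2.21, −1.79 and 0.42) and for Arntl (−2.14, −1.41 and 0.73). The call for 1600014C23Rik was lost without irradiated array 3 (adjusted p = 0.0618). Immunoglobulin segments are alike in sequence, so their probe sets may read several.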

How the results depend on the processing

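The count of genes called in irradiated C3H/HeJ lung, 2916, stayed within 1.5 times under each alternative run, from 2464 with no filter and 2426 with only the C3H/HeJ arrays to 3427 after median centring, and between 2145 and 2401 with 1 C3H/HeJ array left out. The counts of differences between strains moved more. Against A/J, 131 genes became 71 after median centring, 47 with no filter, 36 without scaling and 246 with a pseudocount of 32, and 33 to 198 with 1 array left out. Counts past a factor of 1.5 came from leaving out untreated array 1 (50), untreated array 2 (72), irradiated array 1 (55), irradiated array 2 (33) and irradiated array 3 (198). Against C57BL/6J, 200 genes became 99 with no filter and 323 with a pseudocount of 32, and 87 to 162 with 1 array left out, being 90 without untreated array 1, 122 without untreated array 3, 104 without irradiated array 1 and 87 without irradiated array 2. A fit with 1 array left out has fewer degrees of freedom, and what moved these counts was not tested.

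With the replicate number as a block, 2747 genes were called in C3H/HeJ, 109 differed from A/J and 152 from C57BL/6J. Same-numbered irradiated and untreated arrays had deviations that correlated at 0.021, −0.044 and 0.004 across genes. Arrays of different number ranged from −0.067 to 0.08, so no deviation shared by number was seen. Whether samples were paired in handling cannot be told from these values.

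Of 253 named genes 238 were called, and 157 kept that call under all 14 alternatives. Of 3542 values 3226 kept direction and side of the threshold, 277 lost the call, 13 gained it and 26 changed sign. Without scaling the log2 fold change turned positive for Actb (0.17), Ager (0.16), C6 (0.47), Car2 (0.21), Col4a5 (0.36), Gpm6a (0.27), Gsta4 (0.14), H2-Ea (0.14), Igkv6-20 (0.23), Kdm5d (0.59), Ndufb3 (0.40), Pecam1 (0.19), Rtkn2 (0.09), Sdha (0.46), Sftpc (0.01), Srebf1 (0.33) and Uty (0.17). After median centring it turned for C6 (0.09), Kdm5d (0.21), Ndufb3 (0.02), Sdha (0.08) and Scgb1a1 (−0.25). It also turned for Ighm with the median over probe sets (1.18), for Igkv6-20 without untreated array 3 (0.02) and without irradiated array 1 (0.14), and for C6 without irradiated array 2 (0.01). With 1 array left out, Igkv6-20 ranged from −0.5 to 0.14 and C6 from −0.35 to 0.01.

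The log2 strain-marker position of irradiated array 1 was 0.075, and 0.142 with a marker minimum of 1. That of array 2 was 0.041, and 0.161 with a minimum of 1. That of array 3 was 0.56, and 0.616 and 0.754 with minimums of 1 and 3. On the linear scale, chosen after seeing the data, it was 0.52. Signals near the floor limit the folds of low genes, and 3 arrays a group cannot go below an exact permutation p of 0.1 for a single value.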

Other observations

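Fibroblast markers and the insulin-like growth factor system moved in both directions in irradiated C3H/HeJ lung. Of 28 fibroblast genes 6 rose and 9 fell (median −0.20), or 6 and 6 without irradiated array 3, but without scaling 8 rose and 1 fell, and after median centring 7 rose and 5 fell. The median of this list was −0.18 relative to all genes in both of these scalings. The surface sialomucin Cd34, shared with endothelium, had log2 levels of 9.75, 9.92 and 10.04 in irradiated lung, against 8.13, 8.33 and 8.39 in untreated lung, and rose by 1.62. The growth factor Pdgfc rose by 1.40. Igfbp3, which binds insulin-like growth factors, had 6.03, 6.38 and 7.57 against 7.70, 8.06 and 7.83, so irradiated array 3 lay next to the untreated arrays, and its change was −1.20 with that array and −1.65 without it. Clec3b (tetranectin) fell by 1.30, a call lost without array 3 (adjusted p = 0.0598). In the insulin-like growth factor list 4 of 13 rose and 3 fell. The protease Pappa2, which cuts binding proteins, had 5.54, 5.63 and 5.52 against 3.78, 4.39 and 3.70, and the adaptor Irs1 fell by 1.06.

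Genes of cholesterol synthesis mostly did not pass the test, with 2 up and 1 down of 19, but 1 up and 2 down without irradiated array 3. With all arrays the shares were 10.5% and 5.26%, against 12.9% and 10.6% of all genes. Cyp51, a demethylase of that pathway, rose by 0.67.

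Irradiated array 3 lay more than 1 on the log2 scale outside the range of the other irradiated C3H/HeJ arrays at 68 of 12405 genes, array 1 at 44 and array 2 at 37.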
